A study of Mus musculus with 9 samples.

Results

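The Hox genes are the subject here, followed across spinal cord libraries of EAE mice and Controls. EAE, experimental autoimmune encephalomyelitis, is a mouse model of multiple sclerosis in which immune cells enter the cord. All protein-coding genes whose symbol is Hoxa, Hoxb, Hoxc or Hoxd followed by a number were taken, which gave 39 genes of the 27179 identifiers in the count table. Poly-A RNA from the spinal cord of C57BL/6 mice was sequenced in 3 groups of 3 libraries: EAE+EHP-101 (EAE with the compound EHP-101 given by mouth at 20 mg/kg), EAE, and Control. The labels call the 3 libraries of a group biological replicates and give neither the age of the animals, the way EAE was induced, what the Control mice received, nor which stretch of the cord was taken. A library is named below by its group and replicate number, as in EAE 1.

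Hox genes encode transcription factors that bind DNA through a homeodomain and give cells their position along the head-to-tail axis. They lie in 4 clusters, and the number in the symbol is the paralogue group, which counts from the 3' end of the cluster. Genes of low number are active from the hindbrain or the upper cord downwards, genes of higher number only from more caudal levels, and much of this pattern persists in adult cord. In the embryonic cord, genes of groups 4 to 8 are prominent at cervical and brachial levels, group 9 at thoracic levels and group 10 at lumbar levels, where they help to set the identity of motor neurons (groups 1 to 13 are numbered in all). In bulk tissue fewer cells of one kind and less RNA per cell cannot be told apart.

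In the files' build, mm10, the Hoxa cluster lies on chromosome 6 with 11 of the genes, and the Hoxb cluster spans chr11:96194361-96368253 with 10. The Hoxc cluster spans chr15:102921131-103036852 with 9 genes, and the Hoxd cluster spans chr2:74668310-74765142 with 9. The results turn on genes of the Hoxa and Hoxc clusters, and 4 of their homeoboxes are shown because related members could in principle exchange short reads. Each homeobox is 180 bases long and lies in the last coding exon of its gene, and each was read 5' to 3' on the coding strand from the GENCODE M21 transcripts of GRCm38, the same assembly as mm10. The capitals mark the 15 bases that encode the conserved stretch of the DNA recognition helix from homeodomain position 48 onwards.
Hoxa5: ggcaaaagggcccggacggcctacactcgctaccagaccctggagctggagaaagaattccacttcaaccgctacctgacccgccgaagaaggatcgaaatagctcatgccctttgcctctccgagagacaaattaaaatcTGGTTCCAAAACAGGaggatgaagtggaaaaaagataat
Hoxc9: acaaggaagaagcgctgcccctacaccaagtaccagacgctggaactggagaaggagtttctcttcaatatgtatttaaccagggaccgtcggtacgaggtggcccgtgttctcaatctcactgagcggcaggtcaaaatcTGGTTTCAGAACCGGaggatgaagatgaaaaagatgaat
Hoxc10: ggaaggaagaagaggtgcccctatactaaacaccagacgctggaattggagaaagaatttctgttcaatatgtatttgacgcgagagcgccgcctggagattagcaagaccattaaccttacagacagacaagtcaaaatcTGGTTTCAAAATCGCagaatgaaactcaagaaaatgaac
Hoxa10: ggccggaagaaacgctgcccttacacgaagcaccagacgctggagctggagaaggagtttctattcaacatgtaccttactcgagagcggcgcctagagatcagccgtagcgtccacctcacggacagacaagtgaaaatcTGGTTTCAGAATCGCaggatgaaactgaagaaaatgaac

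Hoxa10 and Hoxc10, of one paralogue group, shared 80.6% of the 180 bases, whereas the neighbours Hoxc9 and Hoxc10 shared 71.7% and Hoxa5 and Hoxc10 60.6%. The longest run of identical bases among these 4 homeoboxes was 17, found for Hoxc9 against Hoxc10 and for Hoxa10 against Hoxc9, and the reads were 50 bases long. Of the 50-base words in the transcript of Hoxc9, 1 of 2311 also occurred in another Hox transcript. The Hoxc5, Hoxc10, Hoxa5, Hoxa9 and Hoxa10 transcripts shared 0 such words with other members, so their counts could be told apart by sequence. Hoxa3 has 543 exon bases under a gene on the opposite strand and Hoxa11 has 525. Libraries were made with a stranded kit per the labels, but the strand setting used for counting is not given in the sources used here, so the counts of Hoxa3 are less certain.

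Libraries held 30448507 to 32661741 counts, of which 21631 to 25932 fell on Hox genes. Each library differed from the others of its group by more than sampling noise, with a chi-square of 6.36 to 26.1 per degree of freedom, and was taken as 1 sample. The p-values below measure the spread between 3 samples a group. The brain markers Otx2 and Six3 were at 0 in every library, Emx1, Emx2, Tbr1, Lhx2 and Lhx6 stayed between 0 and 0.352 CPM (counts scaled to library size), and a list of 14 regional brain genes summed to 21.3 to 23.5 CPM, mostly from Pax6, En2 and Neurod6. The neuron list summed to between 11912 and 15123 CPM. Microglia and macrophage markers summed to 324 to 532 CPM in EAE+EHP-101, 1058 to 1429 CPM in EAE and 240.0 to 308 CPM in Control, and lymphocyte markers to 4.45 to 11.3, 16.5 to 21.7 and 3.45 to 4.07 CPM in the same groups. The part of these cells in the Hox differences was not tested.

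The cord libraries expressed the Hox genes from group 1 to group 10, with the highest levels in groups 5 to 9. Of the 39 genes, 28 passed the filter on low counts and were tested. The other 11 are Hoxb1, Hoxd10, Hoxa11, Hoxc11, Hoxd11, Hoxc12, Hoxd12, Hoxa13, Hoxb13, Hoxc13 and Hoxd13. Among these, Hoxa11, Hoxa13, Hoxc11, Hoxc12 and Hoxd12 had 0 counts in all 9 libraries, which allows up to 3 counts or 0.0906 to 0.0985 CPM a library for counting error alone. The 6 others had 1 to 16 counts over all libraries together, with the 16 on Hoxb1. The sum over all Hox genes, 373 ± 24.7 RPKM (CPM per kb of gene) in EAE+EHP-101, 353 ± 16.9 RPKM in EAE and 357 ± 14.7 RPKM in Control (SD, n = 3 each), differed between any 2 groups by less than the larger of their SDs.

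Hoxb8 and Hoxc8, which act in cervical to thoracic cord, had the highest levels per length, averaging 55.6 and 54.1 RPKM over the 9 libraries. Hoxb9 followed at 31.2 RPKM and Hoxb6 at 31.05 RPKM. In the Hoxa cluster Hoxa5 led with 20.2 RPKM and in the Hoxd cluster Hoxd8 led with 21.2 RPKM. Levels dropped sharply at the caudal end of each cluster. Hoxa10 averaged 0.684 RPKM and Hoxc10 0.677 RPKM, against 2.54 RPKM for Hoxa9 and 3.75 RPKM for Hoxc9 next to them, while Hoxb9 stayed high and Hoxd9 averaged 1.89 RPKM. The Hoxb cluster carried 45.1% to 54.4% of the summed level of a library, and groups 6 to 8 carried 57.5% to 64.5%. Hoxd genes made up 10.3% to 10.4% in EAE+EHP-101, 9.98% to 10.2% in EAE and 10.6% to 11.1% in Control.

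**Figure D1:**
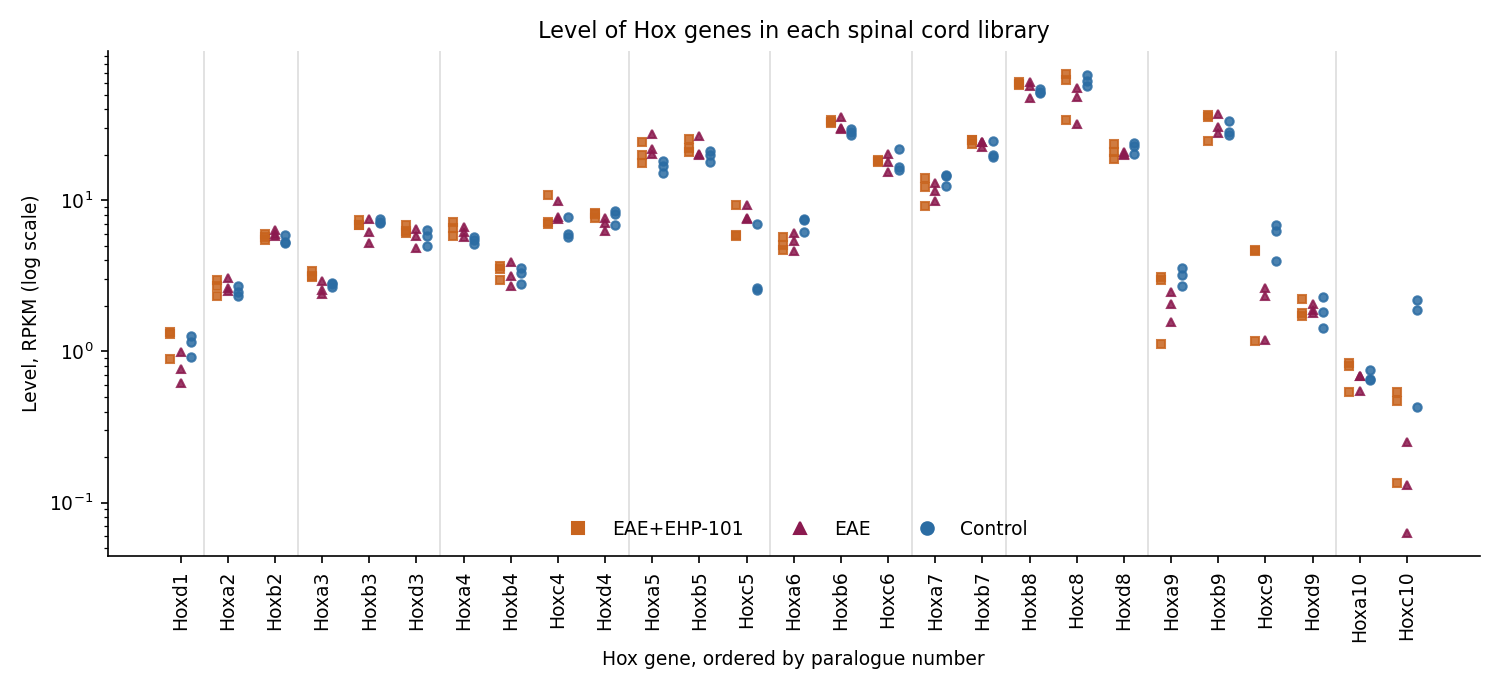
Level of tested Hox genes in each library, in RPKM on a log axis, ordered by paralogue number; each point is 1 library and the 3 groups stand side by side for each gene. Levels are highest for Hoxb8 and Hoxc8 and lowest at both ends, and the libraries of a group spread most for Hoxc10, Hoxc9, Hoxa9 and Hoxc5.

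Libraries of the same group differed from one another along the paralogue order. The pooled SD of log2 CPM within groups had a median of 0.194 over the 28 genes and of 0.126 over all 16749 genes tested. It was above the 90th percentile of all genes, 0.395, for 5 of the 28 genes, namely Hoxa9, Hoxc5, Hoxc8, Hoxc9 and Hoxc10. For Hoxc10 it reached 1.11, at the 99.4th percentile, and for Hoxc9 0.785, at the 98.3rd. Low counts add sampling error to Hoxc10, which had 4 to 128 counts a library, but Hoxc8 had 2499 to 5093 counts.

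EAE+EHP-101 3 and EAE 1 stood apart in the same way: both were low in Hoxc8, Hoxc9, Hoxc10 and Hoxa9 and high in Hoxc4, Hoxc5 and Hoxa5. The Controls were split too: Control 2 and Control 3 were high in Hoxc10 and low in Hoxc5, whereas Control 1 lay close to EAE+EHP-101 1 and 2 in both. Beside Control 2 and 3, Control 1 was also lower in Hoxc9 and Hoxa9 and higher in Hoxc4 and Hoxa5. These are the directions in which EAE+EHP-101 3 and EAE 1 stood apart. Hoxc8 went the other way, with 160.4, 135 and 145 CPM in Control 1 to 3. The labels give no batch, level of the cord or sampling detail that separates these libraries, and the part of such factors was not tested. Because of this, the results below are also given without these libraries.

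The ratio of Hoxc9 to Hoxc5 per kb sums up the split within the Hoxc cluster. It was 0.796, 0.788 and 0.125 in EAE+EHP-101 1 to 3, and 0.128, 0.347 and 0.310 in EAE 1 to 3. In Control it was 0.571, 2.60 and 2.48. The groups overlapped between EAE+EHP-101 and EAE and between EAE+EHP-101 and Control, while all 3 EAE libraries lay below all 3 Controls. The ratio of Hoxa9 to Hoxa5 ordered the libraries much alike, with 0.168, 0.157 and 0.0462 in EAE+EHP-101, 0.0572, 0.0950 and 0.122 in EAE, and 0.148, 0.210 and 0.212 in Control. Hoxb9 to Hoxb5 set apart EAE+EHP-101 3 at 0.964 and EAE 1 at 1.04, with 1.36 to 1.85 in the other 7 libraries, Controls included. Hoxd9 to Hoxd4 did not follow this order, with 0.217 to 0.274 in EAE+EHP-101, 0.245 to 0.328 in EAE and 0.207 to 0.269 in Control.

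**Figure D2:**
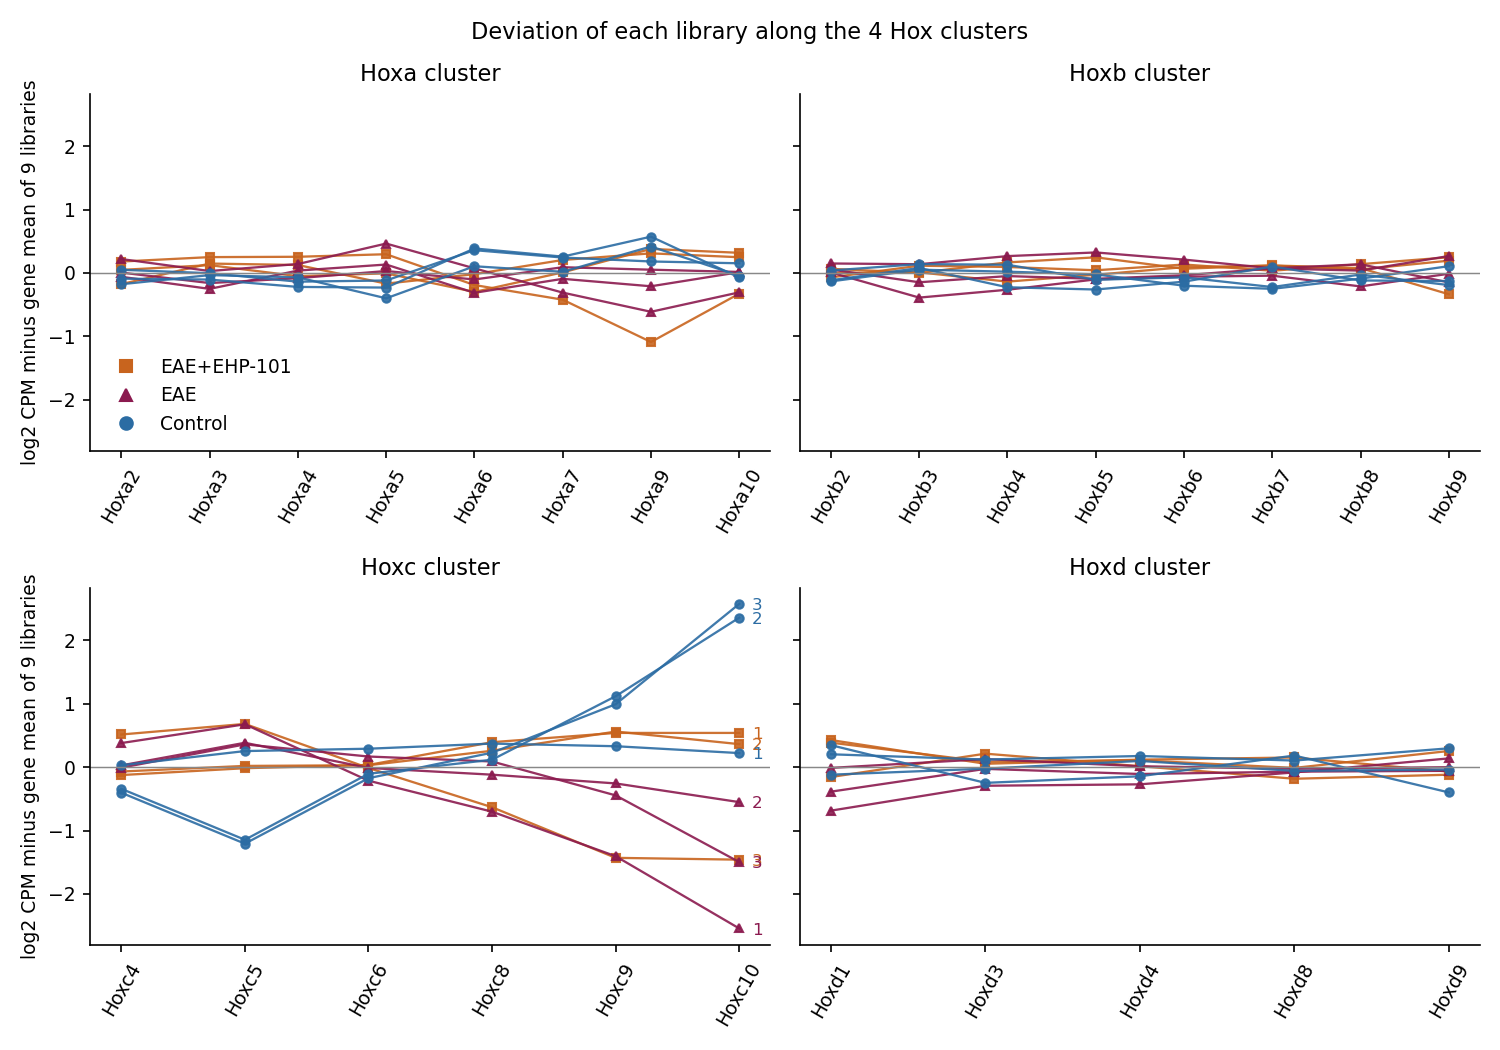
Deviation of each library from the mean of the 9 libraries, in log2 CPM, along tested genes of each cluster; each line is 1 library, and digits at the end of the Hoxc lines give the replicate. The lines stay within about 0.4 of 0 along Hoxb and fan out along Hoxc, where Hoxc10 runs from Control 3 at the top to EAE 1 at the bottom.

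**Figure D3:**
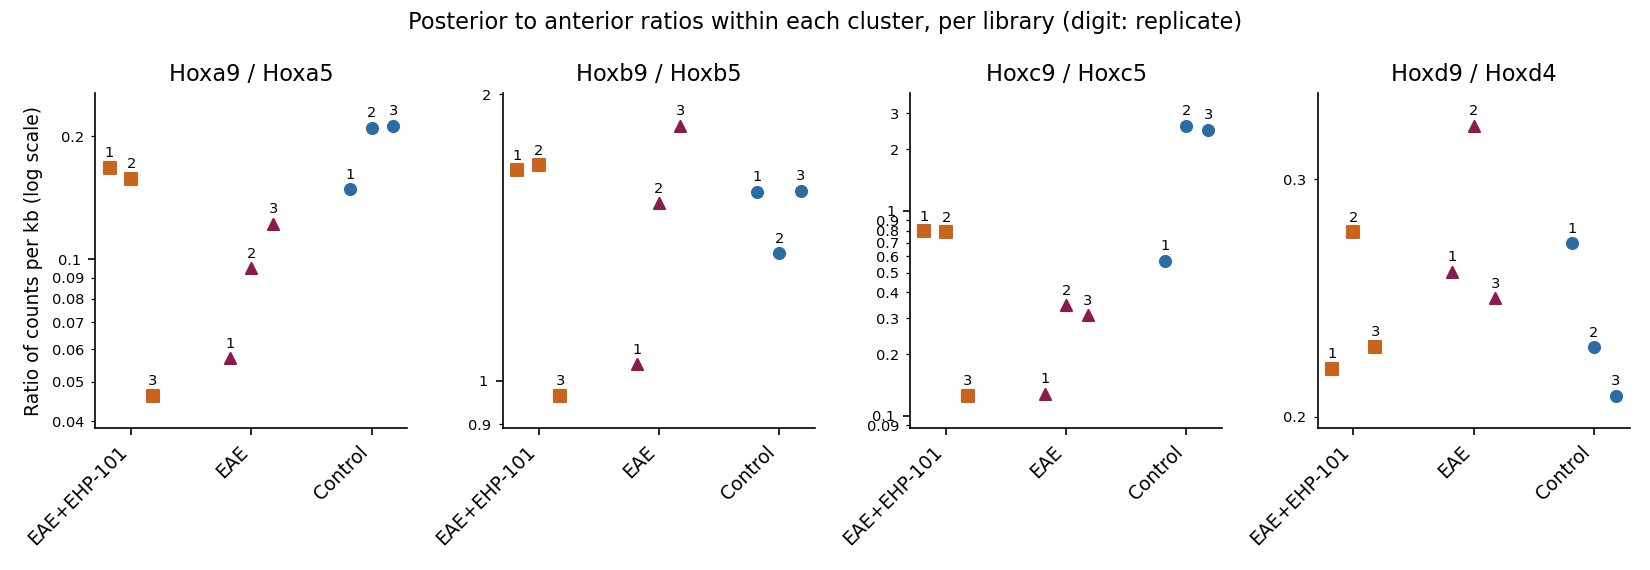
Ratio of a posterior to an anterior gene of each cluster, from counts per kb, on log axes that differ between panels; each point is 1 library and its digit the replicate. EAE+EHP-101 3 and EAE 1 have the lowest ratios for Hoxa, Hoxb and Hoxc but not for Hoxd, and Control 2 and 3 have the highest ratio for Hoxc.

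The mean paralogue number of the Hox transcripts, weighted by level per length, was 6.76, 6.73 and 6.38 in EAE+EHP-101, 6.42, 6.63 and 6.70 in EAE, and 6.71, 6.72 and 6.80 in Control. All 3 EAE values lay below the Control values, by a mean difference of -0.16, and the EAE+EHP-101 values overlapped both other groups. It is a score over the members and was not tested. Without EAE 1 the difference between EAE and Control was -0.08, and without EAE+EHP-101 3 the difference between EAE+EHP-101 and Control was 0.0013 in place of -0.12. Groups 4 and 5 made up 17.96%, 18.7% and 25.6% of the summed level in EAE+EHP-101, 25.6%, 21.6% and 19.5% in EAE, and 19.1%, 17.8% and 16.3% in Control. Groups 10 and 11 together stayed below 1% everywhere, with 0.340%, 0.348% and 0.204% in EAE+EHP-101, 0.176%, 0.279% and 0.222% in EAE, and 0.321%, 0.723% and 0.826% in Control.

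EAE was compared with Control first, to ask which Hox transcripts differ in the disease model. Hoxc10 and Hoxc9 fell in EAE and Hoxc5 and Hoxa5 rose, so that 4 of the 28 tested genes were called by edgeR's quasi-likelihood test (2 higher, 2 lower, Benjamini-Hochberg adjusted p under 0.05). Over all genes 37% were called, 20.2% higher and 16.7% lower, a larger share than among the Hox genes. Their median log2 fold change was 0.004 beside 0.006 for all genes. By paralogue group, 2 of 7 genes of groups 4 and 5 were higher, 0 of 8 of groups 6 to 8 and 0 of 7 of groups 1 to 3 were called, while 1 of 4 of group 9 was lower and 1 of 2 of group 10 was lower.

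Hoxc10 (chr15:102966796-102971898, plus strand), a gene of lumbar cord and hindlimb-level motor neurons, had 4, 15 and 8 counts in EAE 1 to 3, against 25, 114 and 128 counts in Control 1 to 3. These correspond to 0.121, 0.481 and 0.249 CPM in EAE and 0.821, 3.61 and 4.19 CPM in Control. All EAE libraries were below all Controls, and Control 1 was closer to EAE 2 than to the other Controls. The gene averaged 0.284 ± 0.182 CPM in EAE and 2.87 ± 1.80 CPM in Control (SD, n = 3 each), lower by 10.1-fold in the fit (log2 -3.34, SE 0.67, adjusted p = 0.00271). It stayed called without any single library, with log2 -2.98 without EAE 1 and -3.17 without Control 2, but not with Control 2 and Control 3 both left out, where the log2 fold change was -1.53 (adjusted p = 0.172).

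Hoxc9 (chr15:102977032-102984444, plus strand) marks thoracic cord, where in mouse embryos it represses the limb-level motor neuron programme. It had 2.05, 4.55 and 3.99 CPM in EAE, against 6.83, 11.8 and 10.8 CPM in Control. No EAE library reached the lowest Control. It averaged 3.53 ± 1.31 CPM in EAE and 9.81 ± 2.63 CPM in Control (SD, n = 3 each), lower by 2.79-fold (log2 -1.48, SE 0.43, adjusted p = 0.0198). The call was lost without EAE 1 (adjusted p = 0.0738) and without Control 2 (adjusted p = 0.0667), and with Control 2 and 3 both left out the log2 fold change was -0.96 (adjusted p = 0.292).

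Hoxc5 (chr15:103014008-103017429, plus strand), a gene of cervical cord that acts in phrenic motor neurons together with Hoxa5, showed the opposite order. It had 25.5, 20.8 and 20.5 CPM in EAE, against 19.0, 7.21 and 6.91 CPM in Control. Control 1 lay just below the EAE libraries, and the distance came mainly from Control 2 and Control 3. The fit gave a rise of 2.02-fold (log2 1.01, SE 0.33, adjusted p = 0.0328). Without Control 1 the log2 fold change was 1.63 (adjusted p = 0.000609), and the call was lost without Control 2 (0.75, adjusted p = 0.140), without Control 3 (0.74, adjusted p = 0.105) or without EAE 1 (0.90, adjusted p = 0.1), without EAE 2 (1.02, adjusted p = 0.0697) or without EAE 3 (1.06, adjusted p = 0.0525). With Control 2 and 3 both left out it was 0.23 (adjusted p = 0.554).

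Hoxa5 (chr6:52201754-52204587, minus strand), needed for phrenic motor neurons and for lung development, was more even within groups. It had 51.5, 40.9 and 38.1 CPM in EAE, against 34.4, 31.8 and 28.3 CPM in Control, with EAE 1 highest and no overlap. It rose by 1.38-fold (log2 0.47, SE 0.13, adjusted p = 0.0183). The call was lost without EAE 1 (0.32, adjusted p = 0.0891), without Control 2 (0.44, adjusted p = 0.0643) and without Control 3 (0.36, adjusted p = 0.0703). With a length trend removed from each library, neither Hoxa5 nor Hoxc5 was called (adjusted p = 0.125 and 0.0523), although Hoxc5 was with a replicate block added to it (adjusted p = 0.0373). DESeq2's Wald test did not call Hoxc5 either (log2 0.99, adjusted p = 0.0654).

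The other 24 genes were not called, with log2 fold changes from -0.63 to 0.37, SEs from 0.08 to 0.30 and adjusted p from 0.0531 to 0.950. The EAE and Control libraries did not overlap for 3 genes above (Hoxa5, Hoxb6 and Hoxc5) and 5 below (Hoxa6, Hoxa9, Hoxc8, Hoxc9 and Hoxc10), where 25.6% of all genes stood apart above and 21.1% below (46.6% in all). Hoxa9, a group 9 gene of thoracic level, had 3.56, 4.71 and 5.64 CPM in EAE and 6.18, 8.10 and 7.27 CPM in Control (log2 -0.63, SE 0.30, adjusted p = 0.125). Hoxc8, which in mouse sets the motor pool code of the lower brachial cord, had 76.2, 114 and 132 CPM in EAE and 160.4, 135 and 145 CPM in Control (log2 -0.45, SE 0.24, adjusted p = 0.162). Hoxc4, next to Hoxc5, had 19.5, 15.3 and 14.9 CPM in EAE and 15.3, 11.8 and 11.3 CPM in Control (log2 0.37, SE 0.18, adjusted p = 0.130). In Hoxc4 the lowest EAE libraries overlapped Control 1.

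Of the 8 Hoxb and 5 Hoxd genes tested, 0 were called. Hoxb8 had 161, 126 and 150.3 CPM in EAE, against 138, 144 and 135 CPM in Control (log2 0.07, SE 0.08, adjusted p = 0.515). Hoxb9, the most posterior Hoxb gene tested, had 75.3, 82.8 and 100.5 CPM in EAE, against 89.9, 73.1 and 76.4 CPM in Control (log2 0.11, SE 0.15, adjusted p = 0.593). The groups overlapped for Hoxb8 and Hoxb9. Hoxd8 had 28.7, 28.4 and 29.6 CPM in EAE and 32.4, 28.9 and 34.2 CPM in Control (log2 -0.14, SE 0.09, adjusted p = 0.249). Hoxd9 had 3.77, 4.32 and 3.93 CPM in EAE and 4.83, 3.83 and 2.98 CPM in Control (log2 0.05, SE 0.18, adjusted p = 0.858). Hoxa10, of the same paralogue group as Hoxc10, had 1.72, 2.15 and 2.15 CPM in EAE and 2.37, 2.03 and 2.06 CPM in Control (log2 -0.10, SE 0.20, adjusted p = 0.722), and the groups overlapped. A difference between the changes of Hoxa10 and Hoxc10 was not tested.

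Leaving out EAE 1 and EAE+EHP-101 3 together, an alternative chosen after seeing the data, gave 4 called Hox genes (Hoxb3, Hoxc9 and Hoxc10 lower, Hoxa5 higher). Over all genes the calls fell from 6191 to 4354. Leaving out Control 2 and Control 3 together, also chosen after seeing the data, left Control 1 as the lone Control, assumed to vary like the other groups. The log2 fold change of Hoxb7 was then 0.28. Those of Hoxc10, Hoxc9, Hoxc5 and Hoxa5 were -1.53, -0.96, 0.23 and 0.34.

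EAE+EHP-101 was then compared with EAE, to ask whether Hox transcripts differ when the compound is given. In edgeR 0 of 28 Hox genes were called, beside 5.24% of all genes (0.43% higher and 4.81% lower), and limma voom and DESeq2 also called 0. An unadjusted p under 0.05 was reached by 2 of the 28, Hoxa3 and Hoxd1, where 16.2% of all genes reached it. The log2 fold changes ran from -0.22 to 1.36 with SEs from 0.08 to 0.77, and 22 of 28 were positive, where 8328 of 16749 were over all genes. Their median was 0.05 beside -0.001 for all genes. With libraries scaled on the neuron markers, the median was -0.048 for the Hox genes and -0.105 for all genes. Libraries did not overlap for 2 genes, Hoxa3 and Hoxd4, both higher in EAE+EHP-101, where 10.7% of all genes were higher without overlap.

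For the caudal Hoxc genes no difference between EAE+EHP-101 and EAE was detectable, and Hoxc10 and Hoxc9 had the largest SEs of the 28 genes. Hoxc10 had 1.02, 0.905 and 0.256 CPM in EAE+EHP-101, against 0.121, 0.481 and 0.249 CPM in EAE (log2 1.36, SE 0.77, adjusted p = 0.435). Hoxc9 had 7.90, 8.02 and 2.02 CPM in EAE+EHP-101, against 2.05, 4.55 and 3.99 CPM in EAE (log2 0.76, SE 0.44, adjusted p = 0.449). In both genes EAE+EHP-101 1 and 2 were above every EAE library and EAE+EHP-101 3 was within or below the EAE range. Without EAE+EHP-101 3 Hoxc9 was called higher (log2 1.18, adjusted p = 0.0495), and without EAE 1 as well it was not. Hoxc8 had 163, 148 and 80.0 CPM in EAE+EHP-101, against 76.2, 114 and 132 CPM in EAE (log2 0.28, SE 0.24, adjusted p = 0.631). Hoxa9 had 6.75, 7.08 and 2.56 CPM in EAE+EHP-101, against 3.56, 4.71 and 5.64 CPM in EAE (log2 0.24, SE 0.31, adjusted p = 0.760).

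Hoxc5 and Hoxa5 lay the other way round. Hoxc5 had 15.8, 16.2 and 25.6 CPM in EAE+EHP-101, against 25.5, 20.8 and 20.5 CPM in EAE (log2 -0.22, SE 0.32, adjusted p = 0.794). Hoxa5 had 33.2, 37.2 and 45.8 CPM in EAE+EHP-101, against 51.5, 40.9 and 38.1 CPM in EAE (log2 -0.17, SE 0.13, adjusted p = 0.599). For both, EAE+EHP-101 1 and 2 were below every EAE library and EAE+EHP-101 3 was not. Hoxa3, a gene active from the hindbrain downwards, had 8.03, 7.89 and 8.61 CPM in EAE+EHP-101, against 7.40, 6.09 and 6.49 CPM in EAE, where the groups did not overlap (log2 0.30, SE 0.10, adjusted p = 0.160). Hoxd1 had 2.49, 2.43 and 1.67 CPM in EAE+EHP-101, against 1.42, 1.15 and 1.84 CPM in EAE (log2 0.58, SE 0.23, adjusted p = 0.235). Hoxb8, at 161, 152 and 154 CPM in EAE+EHP-101, and Hoxd8, at 33.5, 29.8 and 26.5 CPM, had log2 fold changes of 0.10 and 0.05. The most posterior genes of the other clusters overlapped too. Hoxb9 had 99.1, 95.5 and 66.2 CPM in EAE+EHP-101 (log2 0.01 against EAE), Hoxd9 had 3.74, 4.69 and 3.62 CPM (log2 0.003) and Hoxa10 had 2.53, 2.65 and 1.70 CPM (log2 0.19).

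EAE+EHP-101 was last compared with Control, a comparison that shares its libraries with both others. Hoxc10 and Hoxa6 fell, the 2 calls among 28 genes, beside 19.8% of all genes called, 9.96% higher and 9.82% lower. Hoxc10 had 1.02, 0.905 and 0.256 CPM in EAE+EHP-101, against 0.821, 3.61 and 4.19 CPM in Control (log2 -1.98, SE 0.58, adjusted p = 0.0358). Control 1 lay within the EAE+EHP-101 range, so the groups overlapped. The call was lost without EAE+EHP-101 3 (log2 -1.58, adjusted p = 0.119), without EAE+EHP-101 2 (-2.17, adjusted p = 0.101), without Control 2 (-1.80, adjusted p = 0.105) and without Control 3 (-1.62, adjusted p = 0.0905). With Control 2 and 3 both left out the log2 fold change was -0.17 (adjusted p = 0.901), so the difference rested on those 2 Controls.

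Hoxa6 (chr6:52206365-52208624, minus strand), a group 6 gene of brachial cord, had 3.97, 3.27 and 3.52 CPM in EAE+EHP-101, against 5.16, 5.25 and 4.32 CPM in Control. All 3 EAE+EHP-101 libraries were below all Controls, and the libraries of a group were close to each other. It was lower by 1.37-fold (log2 -0.45, SE 0.15, adjusted p = 0.0497), just past the threshold, and of 23 alternatives 8 kept the call. In EAE it had 4.23, 3.24 and 3.74 CPM, also below all Controls, but was not called there (log2 -0.39, SE 0.15, adjusted p = 0.0531).

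In the same comparison Hoxa3, Hoxa4, Hoxb6 and Hoxb8 were higher in every EAE+EHP-101 library than in every Control, where 19% of all genes were, and Hoxa6 alone was lower throughout, where 17.5% were. Hoxb8 had 161, 152 and 154 CPM in EAE+EHP-101, against 138, 144 and 135 CPM in Control (log2 0.17, SE 0.08, adjusted p = 0.163). Hoxb6 was at 44.8, 43.6 and 42.8 CPM in EAE+EHP-101, against 35.6, 38.98 and 37.2 CPM in Control (log2 0.23, SE 0.08, adjusted p = 0.0546). Neither passed. Hoxc5 had a log2 fold change of 0.80 (SE 0.33, adjusted p = 0.113) and Hoxc9 of -0.72 (SE 0.41, adjusted p = 0.243), with overlapping groups. The Hox genes had a median log2 fold change of 0.09 beside 0.01 for all genes. Without EAE 1 and EAE+EHP-101 3, 0 Hox genes were called, but over all genes the calls also dropped to 1, beside 3314 with all 9 libraries. Without Control 2 and 3, 0 Hox genes and 335 of all genes were called. These counts of calls therefore say nothing particular about Hox genes. The change in the Hoxc10 fold change without Control 2 and 3 is given above.

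**Figure D4:**
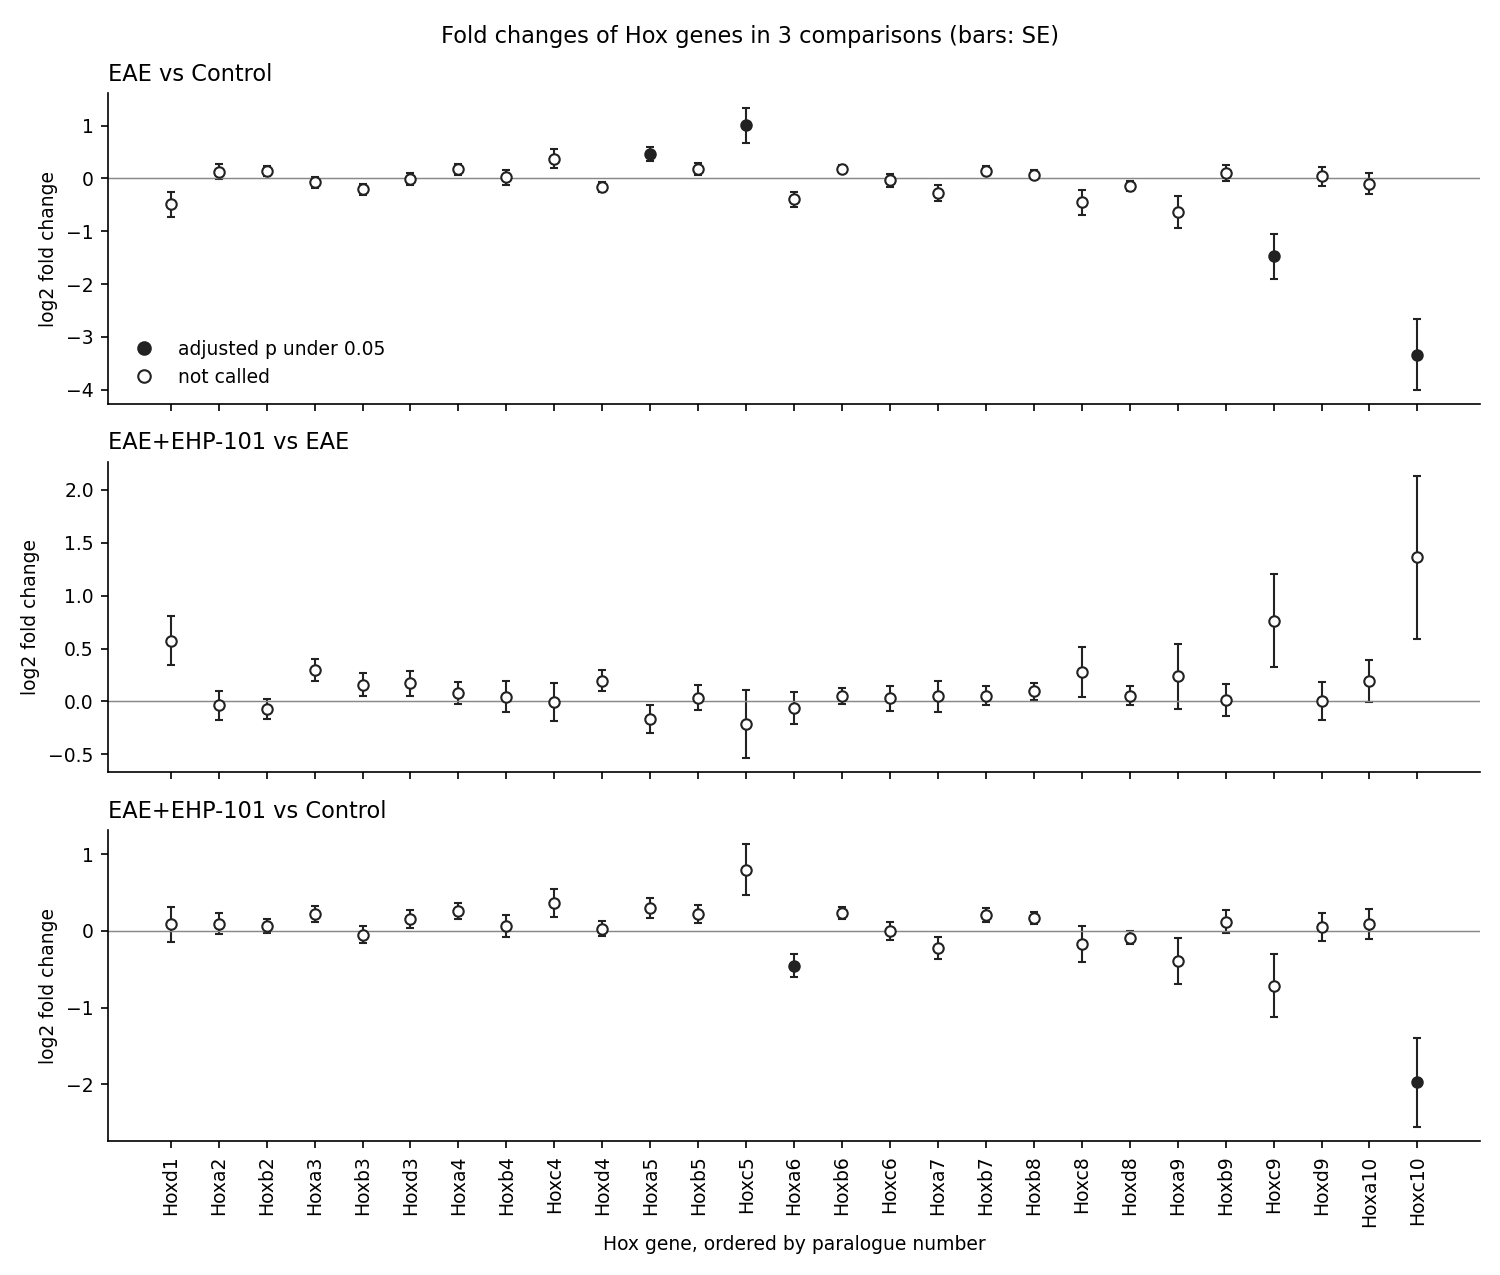
Log2 fold change of tested Hox genes with the SE in the 3 comparisons, ordered by paralogue number, with axes that differ between panels; filled points have an adjusted p under 0.05. In EAE against Control 4 genes are filled (Hoxa5, Hoxc5, Hoxc9 and Hoxc10), in EAE+EHP-101 against EAE none of those shown are, and in EAE+EHP-101 against Control Hoxa6 and Hoxc10 are.

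Genes that work with the Hox proteins or regulate them were read from the same fit. The TALE homeodomain cofactors of the Pbx, Meis and Pknox families bind DNA together with Hox proteins. Of 9 tested, 3 were lower in EAE than in Control and 0 were higher, where 16.7% of all genes were lower and 20.2% higher. Meis1 had 25.3, 22.2 and 21.2 CPM in EAE, against 26.8, 29.8 and 29.2 CPM in Control (log2 -0.32, SE 0.08, adjusted p = 0.0105), Meis2 a log2 fold change of -0.27 (adjusted p = 0.0179) and Pbx3 of -0.28 (adjusted p = 0.0213). Between EAE+EHP-101 and EAE 0 of 9 were called, beside 5.24% of all genes. Meis2 alone was called lower in EAE+EHP-101 than in Control (log2 -0.25, adjusted p = 0.0404), where 9.82% of all genes were lower. The list's median log2 fold changes were -0.06 for EAE over Control, -0.09 for EAE+EHP-101 over Control and 0.05 for EAE+EHP-101 over EAE.

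Polycomb and trithorax proteins keep Hox genes silent or active. Of 39 tested, 9 were lower and 1 higher in EAE than in Control, in all a smaller share than the 37% called over all genes. Over all genes 16.7% were lower and 20.2% higher, so the share lower was larger in the list and the share higher smaller. Between EAE+EHP-101 and EAE 0 were called, beside 5.24% of all genes. In EAE+EHP-101 against Control, 3 were lower and 1 higher, where 9.82% of all genes were lower and 9.96% higher. Kmt2a, a trithorax methyltransferase that maintains Hox expression, had 129, 104 and 133 CPM in EAE, against 188, 199 and 155 CPM in Control (log2 -0.57, SE 0.11, adjusted p = 0.00204). Phc3, a Polycomb repressive complex subunit, had log2 fold changes of -0.32 in EAE (adjusted p = 0.00198) and -0.21 in EAE+EHP-101 (adjusted p = 0.0327) against Control. Pcgf5, a Polycomb ring finger subunit, had -0.43 (adjusted p = 0.00496) and -0.56 (adjusted p = 0.00590). The list's median log2 fold change was -0.07 in EAE against Control.

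Retinoic acid sets the rostral limits of Hox expression in the embryo. Of 16 genes tested, 3 were higher and 1 lower in EAE than in Control, again beside 37% called over all genes. Cyp26b1, which degrades retinoic acid, had 2.54, 2.56 and 1.65 CPM in EAE, against 3.94, 5.60 and 5.41 CPM in Control (log2 -1.15, SE 0.20, adjusted p = 0.00127). Aldh1a2, which makes retinoic acid, split the Controls as Hoxc5 did. It had 3.97, 3.52 and 4.07 CPM in EAE+EHP-101, 6.82, 5.80 and 7.30 CPM in EAE, and 4.34, 1.14 and 0.983 CPM in Control (EAE against Control log2 1.63, SE 0.41, adjusted p = 0.00916). In EAE+EHP-101 against Control, 2 of the 16 genes were higher and 1, Cyp26b1, was lower (log2 -0.95, adjusted p = 0.0107). Over all genes 9.96% were higher and 9.82% lower in this comparison.

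Of 9 upstream regulators of axial patterning 5 were tested, and Cdx1, Cdx2 and Cdx4, which drive trunk Hox genes in the embryo, were between 0 and 0.0647 CPM. Egr2, which controls hindbrain Hox genes in the embryo and is also expressed by macrophages, had 0.800, 0.841 and 1.25 CPM in EAE+EHP-101, 3.14, 4.49 and 3.46 CPM in EAE, and 0.230, 0.221 and 0.295 CPM in Control. It was higher in EAE than in Control (log2 3.87, SE 0.27, adjusted p = 2.78e-05), lower in EAE+EHP-101 than in EAE (log2 -1.93, SE 0.22, adjusted p = 0.00141) and higher in EAE+EHP-101 than in Control (log2 1.94, SE 0.31, adjusted p = 0.00509). Of the 12 microglia and macrophage markers whose sums are given above, 11 were called higher in EAE than in Control (20.2% of all genes) and 11 lower in EAE+EHP-101 than in EAE (4.81% of all genes). The part of these cells in the level of Egr2 was not tested.

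Among 14 genes of motor neuron subtypes, which Hox proteins help to specify, 3 were lower in EAE than in Control and 0 higher. Over all genes 37% were called, 16.7% lower and 20.2% higher. Nos1, found in preganglionic neurons of thoracic cord and in other neurons, had 20.9, 16.2 and 12.1 CPM in EAE+EHP-101, 13.4, 11.2 and 12.04 CPM in EAE, and 21.5, 38.1 and 29.4 CPM in Control. It was lowest in the Control group in Control 1, and the fall in EAE was 2.43-fold (log2 -1.28, SE 0.21, adjusted p = 0.000945). It was also lower in EAE+EHP-101 than in Control (log2 -0.85, SE 0.21, adjusted p = 0.0180), although EAE+EHP-101 1 was close to Control 1. Nos1 was the 1 call of the list there, where 9.82% of all genes were lower. The sum of the 14 genes split the Controls the other way from Nos1, with 708, 524 and 438 CPM in Control 1 to 3. Foxp1, the Hox cofactor of limb-level motor neurons, had a log2 fold change of -0.25 in EAE (adjusted p = 0.0302), and Lhx4 of -0.71 (adjusted p = 0.0363). Between EAE+EHP-101 and EAE 0 of 14 were called, beside 5.24% of all genes. Of the 9, 39, 16, 5 and 14 genes tested in these 5 lists, 22 in all were called in EAE against Control, beside 37% of all genes. When libraries were scaled on the neuron markers 7 were called, while calls over all genes fell from 6191 to 3772. The 11 calls in EAE+EHP-101 against Control became 0 with EAE 1 and EAE+EHP-101 3 left out and 0 with Control 2 and 3 left out, where over all genes 1 and 335 calls remained of 3314.

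The lists of other cell types that the dissected tissue could hold were also compared between the libraries that stood apart. A list of 12 dorsal root ganglion genes, 7 of them tested, summed to 239, 224 and 237 CPM in EAE+EHP-101, 155, 184 and 252 CPM in EAE, and 242, 130 and 112 CPM in Control. Control 2 and 3, high in Hoxc10, had the 2 lowest sums. Most of this came from Calca, at 117, 40.1 and 32.2 CPM in Control 1 to 3, and Prph, at 99.5, 59.0 and 51.6 CPM. Scn9a went the other way, at 13.3, 16.8 and 16.0 CPM, and Mrgprd was at 0 in every library. The sum is therefore no measure of ganglion tissue by itself. Of the 12 skeletal muscle genes, Pvalb, which neurons also express, made up most of the sum. The other 11 summed to 4.56 to 5.60 CPM in EAE+EHP-101, 5.59 to 6.76 CPM in EAE, and 61.6, 5.03 and 4.72 CPM in Control 1 to 3, so Control 1 stood apart. The fast muscle myosin Myh4 was at 11.2 CPM in Control 1 and at 0 to 0.125 CPM in the other libraries. Neuron markers summed to 13779, 13135 and 13787 CPM in EAE+EHP-101, 12347, 11912 and 13702 CPM in EAE, and 15123, 13179 and 12168 CPM in Control. The ganglion and neuron sums overlapped between groups. Other lists stood apart between EAE and Control: endothelial genes summed to 138 to 219 CPM in EAE and 262 to 409 CPM in Control, fibroblast and meningeal genes to 311 to 363 CPM in EAE and 169.7 to 211 CPM in Control, and astrocyte genes to 10002 to 11890 CPM in EAE and 8061 to 9404 CPM in Control. Of the 10 endothelial genes 8 were called lower in EAE, and of the 10 fibroblast and meningeal genes 6 were called higher, where 16.7% of all genes were lower and 20.2% higher. The part of all these cells in the Hox differences was not tested.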

How the data were processed

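Values were taken from 1 deposited table of whole-number read counts, which per the file headers has 1 row per Entrez identifier and no normalisation. Libraries were poly-A selected and sequenced as single-end reads of 50 bases, per the labels' protocols. Per the submitters' processing notes, the genome build was mm10 and the tools were featureCounts 1.6.1, HISAT2 2.1.0, DESeq2 1.20.0 and Trimmomatic 0.36, with no roles stated. How reads that map to several places were counted is not given in the sources used here, and it could change the counts of near-identical genes.

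Symbols came from a RefSeq table and were found for 25275 of 27179 identifiers. In R 4.3.3, edgeR 4.0.16 kept 16749 genes (filterByExpr), scaled libraries by TMM and fitted 1 mean per group to all 9 libraries by quasi-likelihood (smallest prior degrees of freedom 5.28). Genes with a Benjamini-Hochberg adjusted p under 0.05 over all genes were called. SE is the log2 fold change over the root of its F statistic. CPM and RPKM use the scaled library sizes, and RPKM the deposited gene lengths. Alternatives used DESeq2 1.42.0 and limma 3.58.1 voom, other scalings and filters, a replicate block, a length trend and left-out libraries.

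Counts were simulated for EAE against Control with 67, 67 and 66 genes changed by 1.5-fold, 2-fold and 4-fold, among 16629 tested. The fit called 53.7%, 79.1% and 95.5% of these changed genes and made 11 false calls. In the same way it called 64.2%, 73.1% and 97% of 67, 67 and 66 changed genes for EAE+EHP-101 over EAE, among 16613 tested (10 false calls). For EAE+EHP-101 over Control it called 64.2%, 86.6% and 97% of 67, 67 and 66 changed genes, among 16619 tested (6 false calls). In the data 37%, 5.24% and 19.8% of all genes were called in these 3 comparisons, more than the share changed in the simulations. The rates are therefore not the power of the tests above. The members and the gene lists were chosen with earlier results of these data known. By the rule for named genes, values per library are given for called Hox genes and for the highest and the most posterior tested gene of each cluster, and up to 3 called genes per other list are named. Hoxa3, Hoxa9, Hoxb6, Hoxc4 and Hoxd1 were added after their values were seen. Some genes and sequences are not reported here.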

Additional observations from a re-analysis of the deposited data

How the results depend on the processing

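With single libraries left out, the Hox genes called numbered 1 to 6 for EAE against Control, 0 to 1 for EAE+EHP-101 against EAE and 0 to 2 for EAE+EHP-101 against Control. Over all genes the calls ran from 4378 to 7095, from 370 to 1170 and from 629 to 3739 in these comparisons. The low count of 1 Hox gene for EAE against Control came without Control 2. For EAE+EHP-101 against Control, 1 gene was called with upper quartile factors, with scaling on the neuron list, with no low count filter and with a replicate block plus the length trend removed, and 0 with limma voom, with the replicate block alone and with either pair of libraries left out. Over all genes limma voom still called 3014 and the block 2272, whereas 1 remained without EAE 1 and EAE+EHP-101 3 and 335 without Control 2 and 3, beside 3314. With Control 2 and 3 both left out, Control 1 was the lone Control for EAE against Control, with the fold changes given above. The replicate block left 4 Hox genes for EAE against Control and 0 for EAE+EHP-101 against EAE. Over all genes, 1 of 9 pairs of libraries with the same replicate number had deviations correlated above 0.1 (range -0.17 to 0.11). Over the Hox genes the correlations of such pairs ran from -0.78 to 0.68. Deviations within groups of 3 libraries cannot settle whether libraries were paired.

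The mean paralogue difference ranged from -0.22 to -0.08 for EAE minus Control, from -0.04 to 0.16 for EAE+EHP-101 minus EAE and from -0.19 to 0.0013 for EAE+EHP-101 minus Control with single libraries left out. Hoxc10 was lower in EAE in all 23 alternatives and called in 22, Hoxc9 in 20, Hoxa5 in 17 and Hoxc5 in 14. In EAE against Control some uncalled genes changed sign. With the length trend removed Hoxb8 was at -0.027 and Hoxd9 at -0.11, and with the block added at -0.032 and -0.10. Hoxb8 was at -0.012 without EAE 1 and EAE+EHP-101 3, and without Control 2 and 3 Hoxd9 was at -0.27 and Hoxb9 at -0.062. With single libraries left out, Hoxb8 ran from -0.012 to 0.13, Hoxb9 from -0.027 to 0.19 and Hoxd9 from -0.14 to 0.20. The 2 pairs of libraries were left out by a choice made after seeing the data.

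Over the 5 other lists together, 22 genes were called in EAE against Control, 3 between EAE+EHP-101 and EAE, and 11 in EAE+EHP-101 against Control. The shares called over all genes were 37%, 5.24% and 19.8%. Scaling on the neuron list gave 7 and 6 for the comparisons with Control, where calls over all genes fell from 6191 to 3772 and from 3314 to 1053. The block with the length trend removed gave 5 for EAE+EHP-101 against Control, where either pair left out gave 0 amid the loss over all genes given above. Fitting only the 6 libraries compared gave 5 for EAE+EHP-101 against EAE, where calls over all genes went from 877 to 921. Single libraries left out gave 17 to 30 genes in EAE against Control, 2 to 4 in EAE+EHP-101 against EAE and 4 to 15 in EAE+EHP-101 against Control. Calls over all genes then ran from 4378 to 7095, from 370 to 1170 and from 629 to 3739. Scaling on the neuron list brought the median of all genes to -0.105 in EAE+EHP-101 against EAE, and that of the Hox genes to -0.048. It also changed the all-gene calls for EAE against Control to 2741 higher and 1031 lower, beside 3391 and 2800. Library totals changed those for EAE+EHP-101 against Control to 2176 higher and 1319 lower, beside 1669 and 1645. The causes were not tested. With 4 to 128 counts a library, Hoxc10 rests on few reads, and Hox genes with 0 counts cannot be called absent.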

Other observations

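Genes inside and beside the Hox clusters were read as well. Mira, a non-coding RNA between Hoxa6 and Hoxa7, averaged 54.7 RPKM over the 9 libraries, with 47.4, 49.3 and 42.6 CPM in EAE+EHP-101, 39.8, 48.2 and 44.3 CPM in EAE, and 41.5, 43.2 and 36.7 CPM in Control. It was not called in any of the 3 comparisons by edgeR (adjusted p = 0.305 for EAE against Control). Hoxaas3, an antisense transcript of the Hoxa cluster, had 27, 26 and 23 counts in EAE+EHP-101, 22, 16 and 26 counts in EAE, and 31, 47 and 30 counts in Control, and was lower in EAE than in Control (log2 -0.81, SE 0.26, adjusted p = 0.0284). Hoxd3os1 averaged 1.07 CPM and 5730596B20Rik 2.85 CPM, and neither was called. The counts of antisense transcripts are less certain, since the strand setting is not given in the sources used here. Inside the clusters 3 further identifiers above a mean of 1 CPM have no symbol and are not named.

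Of the nearest protein-coding neighbours of the 4 clusters, Skap2 beside the Hoxa cluster, an adaptor of immune cells, was higher in EAE, with 48.2, 53.8 and 44.1 CPM, against 34.8, 31.5 and 36.1 CPM in Control (log2 0.51, SE 0.08, adjusted p = 0.000920), and lower in EAE+EHP-101 than in EAE (log2 -0.34, SE 0.08, adjusted p = 0.0372). Skap1 beside the Hoxb cluster was higher in EAE (log2 0.62, SE 0.19, adjusted p = 0.0233). Ttll6 at the other end of the Hoxb cluster, an enzyme that modifies tubulin in cilia, was lower in EAE (log2 -0.79, SE 0.27, adjusted p = 0.0372) and in EAE+EHP-101 (log2 -1.02, SE 0.27, adjusted p = 0.0255) than in Control. Calcoco1, Smug1 and Mtx2 were not called in any of the 3 comparisons.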
